A study of Mus musculus with 10 samples.

Results

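The messenger RNA levels of 47 genes whose products carry out DNA repair were described in RAW264.7 cells kept with doxorubicin and in RAW264.7 cells kept in medium. The genes were chosen by symbol, as enzymes and scaffolds of homologous recombination, the Fanconi anaemia pathway, end joining, excision repair, translesion synthesis and mismatch repair. All 47 symbols were found among the 22186 genes of the deposited table. RAW264.7 is a mouse macrophage-like line from a virus-induced tumour, labelled wild type, and it was grown in minimum essential medium with serum and antibiotics. The 5 doxorubicin libraries came from cells kept for 24 h in medium with doxorubicin dissolved in dimethyl sulfoxide, and the 5 medium libraries from cells kept for 24 h in medium with no solvent named. The dose is uncertain, because the sample titles give 10 nM, the series design gives 100 nM and remarks that this should hold for the samples, and the stock dilution described for the treatment works out at 1000 nM. Nothing in the labels ties each library to its own culture, and the p-values therefore cover no more than the spread among these libraries, which may be technical.

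Doxorubicin traps topoisomerase II on cut DNA, which leaves double-strand breaks. Such breaks are rejoined directly by end joining or are resected and copied from the sister chromatid by homologous recombination, a route that serves in S and G2 phase. The Fanconi anaemia proteins detect and unhook crosslinks between strands and hand the broken ends to recombination. Base excision, nucleotide excision and mismatch repair remove damaged or mispaired bases from 1 strand, and translesion polymerases copy past lesions that remain. Many of these proteins are controlled by modification and recruitment, and their messenger RNA need not follow their activity.

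Levels were measured as FPKM, a fragment count divided by transcript length and library total, so they can be set side by side between genes. FPKM summed to between 338293 and 356111 per library, and read totals, and with them the depth, are unknown. Of 10 macrophage markers, 9 had a mean of at least 1 FPKM, and the summed level of the 10 was 1475 to 1707 FPKM in doxorubicin libraries and 1411 to 1580 FPKM in medium libraries. The summed level of 4 T cell, 3 B cell, 4 neutrophil, 4 fibroblast, 4 epithelial, 3 endothelial and 3 erythroid markers was at most 1.39 FPKM in any doxorubicin library and 1.74 FPKM in any medium library for each of these cell types, and Cd3e, Cd8a, S100a9, Col3a1, Dcn, Krt8, Krt18 and Hbb-bt were listed at 0 in all 10. As a check of the drug response, 10 targets of p53 had a median log2 difference of 0.84. At an adjusted p under 0.05 by limma, 5 were higher and 0 lower, against 0.689% and 0.223% of all genes tested. With the replicate number as a block, described below, 7 were higher (70%) and 1 lower (10%), against 7.81% and 13.7%. The lower one was Gadd45a, a growth arrest gene (-1.11, limma adjusted p = 0.226; 0.00439 with the block), which was lower in 5 of 5 replicate numbers. Both libraries numbered 1 lay apart: their correlations with the other 8 had a median of 0.961, against 0.991 among those 8.

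None of the 47 repair genes passed an adjusted p of 0.05 in the comparison of doxorubicin with medium by limma (0 higher and 0 lower, lowest adjusted p = 0.102), where 0.912% of the 9869 genes tested did, 0.689% higher and 0.223% lower. At an unadjusted p under 0.05, 1 repair gene was higher and 9 were lower, and over all genes 6.62% were higher and 11.2% lower. An exact permutation test with adjustment over all genes called 0 repair genes, but no gene at all passed it (smallest adjusted p = 0.118). With 5 libraries against 5 its unadjusted p cannot be lower than 0.00794. At an unadjusted p under 0.05 the permutation test had 1 repair gene higher and 10 lower of 47, and 681 higher and 1083 lower of the 9869 genes tested. Both groups carry replicate numbers 1 to 5, and libraries with the same number deviated together from their group means. Libraries numbered 2 and 3 also did so across numbers, as did those numbered 4 and 5. The correlations therefore do not show 5 separate pairs. With the replicate number as a block in the limma fit, 2 of the 47 were higher (4.26%) and 7 were lower (14.9%), against 7.81% higher and 13.7% lower over all genes tested. These shares are near those over all genes, so the counts show nothing particular to the repair genes. The 7 that fell with the block were Brca2, Palb2, Rad50, Rbbp8, Fancc, Fancd2 and Parp2, and the 2 that rose were Ddb1 and Polk. The log2 difference lay between -0.34 and 0.30 over the 47 genes, with a median of -0.07, against -0.03 over all genes tested. In bulk samples, a lower level in each cell and a smaller share of cells that express the gene cannot be told apart.

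**Figure D1:**
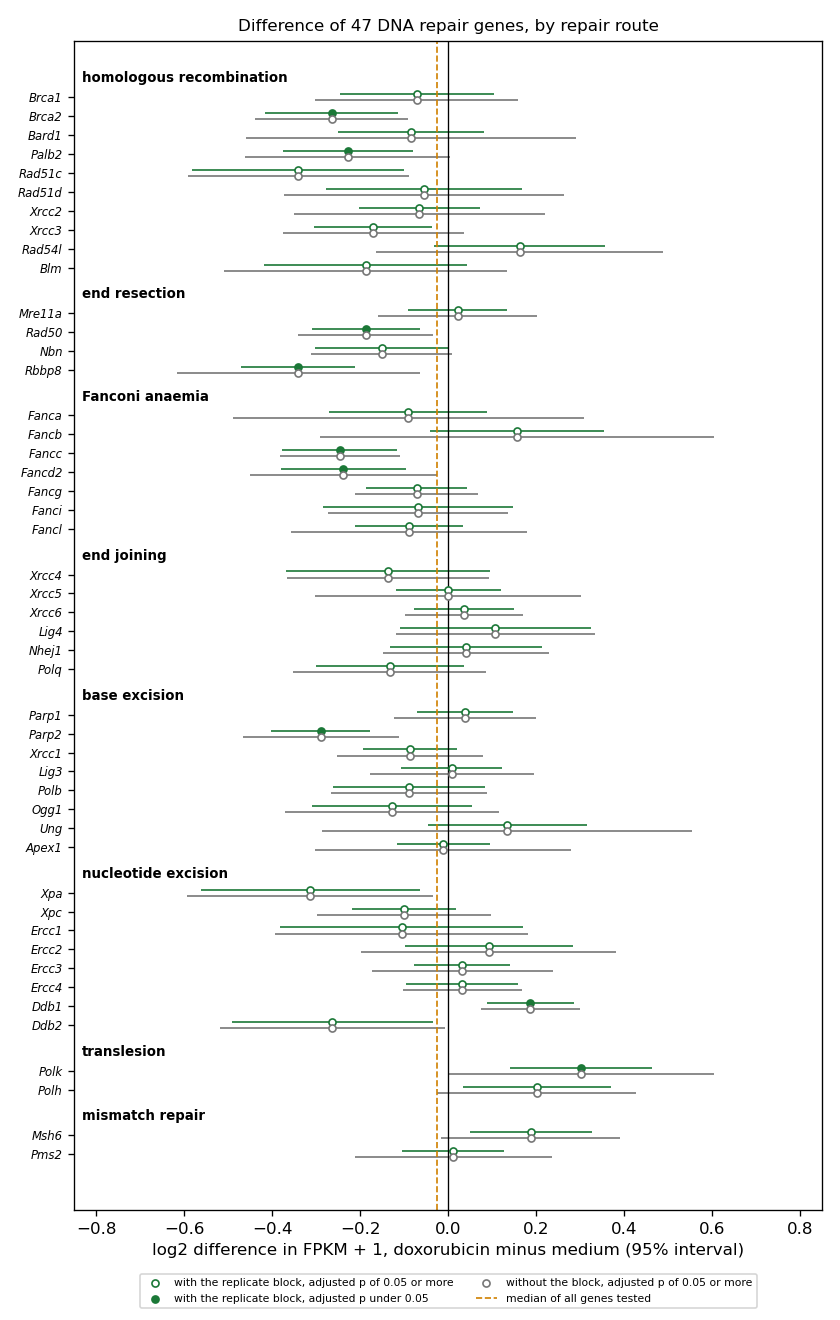
The log2 difference in FPKM + 1 (doxorubicin minus medium) on the x axis for each of the 47 genes, grouped by repair route, with 95% intervals from the limma fits with the replicate block (green) and without it (grey). Filled points have an adjusted p under 0.05, and the dashed line is the median of all genes tested (-0.03). The 9 filled points are 7 below 0 and 2 above it, all from the fit with the block, and 6 of the 7 lie in the upper 3 groups.

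The repair routes were compared by their counts and medians, with no test between routes. Homologous recombination, end resection and the Fanconi anaemia pathway were also pooled, which was not part of the planned comparison by route. In this pool 18 of 21 genes had a log2 difference below 0 (85.7%), against 56.8% of all genes tested. Of the 21, 6 were lower with the block (28.6%), against 13.7%. The median was -0.13 for the 10 recombination genes, -0.17 for the 4 resection genes and -0.09 for the 7 Fanconi genes. End joining had a median of 0.02 over 6 genes, with 0 called with the block. Base excision had a median of -0.05 over 8 genes, with 1 lower with the block. The median of the 8 nucleotide excision genes was -0.03, with 1 higher with the block. Both translesion polymerase genes lay above 0 (0.30 for Polk and 0.20 for Polh), as did both mismatch repair genes (0.19 for Msh6 and 0.01 for Pms2).

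Genes were also compared within each replicate number. Of the 47, 10 were lower with doxorubicin in 5 of 5 numbers (21.3%) and 3 were higher in 5 of 5 (6.38%), against 23.1% and 13.2% of all genes tested. The 10 were the 7 called with the block together with Fancg, Xpa and Xpc, and the 3 were Ddb1, Polk and Msh6. In numbers 1 to 5, the median difference of the 21 recombination, resection and Fanconi genes was -0.14, -0.24, -0.14, -0.07 and -0.09 on the log2 scale, and that of all genes tested was 0.02, -0.07, 0.00, -0.03 and -0.03. For end joining the 5 medians were 0.11, -0.10, 0.08, 0.00 and -0.05. Among these 47 genes the recombination, resection and Fanconi median lay below that of all genes in each number, and the end joining medians had no common sign. The further genes of the same routes, given after the members, did not share this contrast. There the Fanconi and the end joining medians both lay below that of all genes in each number.

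**Figure D2:**
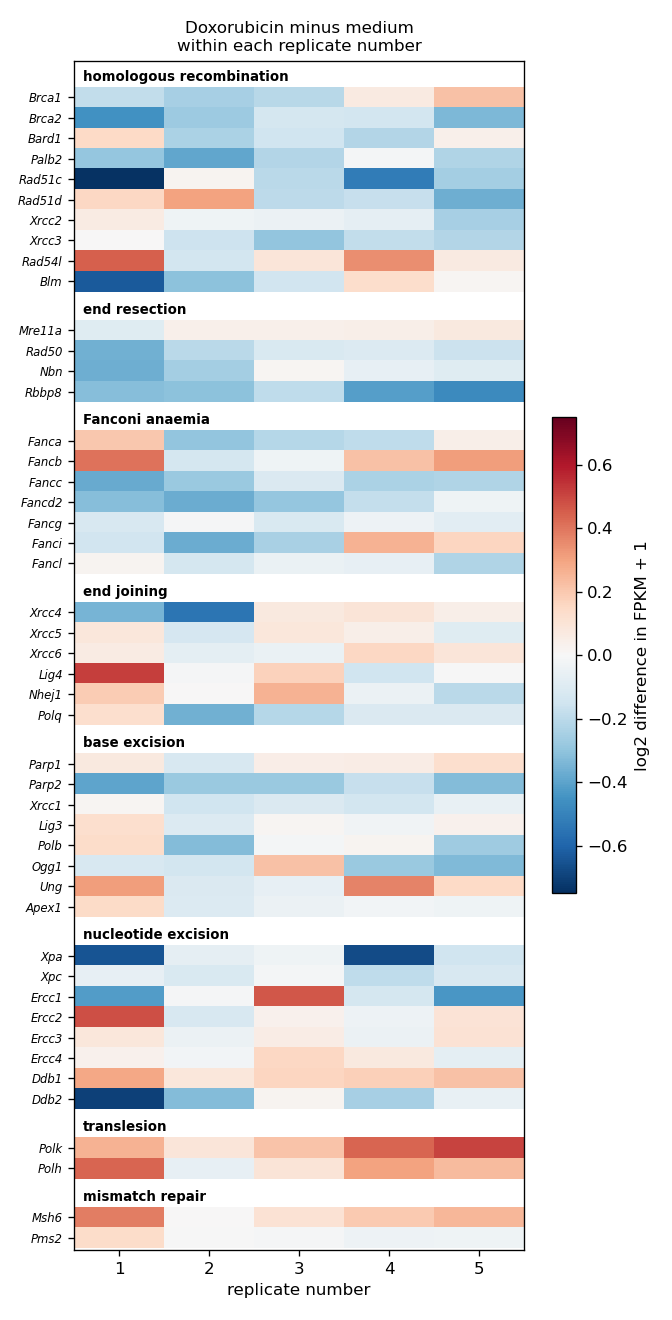
The log2 difference in FPKM + 1 between the doxorubicin and the medium library of the same replicate number (columns 1 to 5) for each of the 47 genes (rows, by route). Red is higher and blue is lower with doxorubicin. Rows such as Rbbp8 and Parp2 are blue in all 5 columns, Ddb1 and Polk are red in all 5, and rows such as Ercc1 (-0.42 in number 1 and 0.46 in number 3) change sign.

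Promoters are shown for the genes whose groups did not overlap and whose promoter is in the RefSeq table, to set Brca2, Fancc and Parp2, which were lower with the block, beside Ddb1, which was higher. Each is the 250 bases before the annotated start (RefSeq, GRCm38.p6, 5' to 3' on the gene's strand), in lower case with motif matches in capitals. The positions are chr5:150522371-150522620, plus strand for Brca2, chr13:63431746-63431995, minus strand for Fancc, chr14:50807666-50807915, plus strand for Parp2 and chr19:10605347-10605596, plus strand for Ddb1.
Brca2: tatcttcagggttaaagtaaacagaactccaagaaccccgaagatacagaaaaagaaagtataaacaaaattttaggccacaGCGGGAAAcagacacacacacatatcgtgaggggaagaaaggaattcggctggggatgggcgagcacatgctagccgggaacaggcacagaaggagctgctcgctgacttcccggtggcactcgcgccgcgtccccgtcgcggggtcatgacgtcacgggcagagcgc
Fancc: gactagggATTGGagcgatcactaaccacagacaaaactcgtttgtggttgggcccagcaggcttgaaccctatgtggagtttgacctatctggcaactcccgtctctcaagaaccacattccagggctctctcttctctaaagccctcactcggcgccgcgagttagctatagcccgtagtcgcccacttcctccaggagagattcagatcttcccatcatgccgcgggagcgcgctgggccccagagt
Parp2: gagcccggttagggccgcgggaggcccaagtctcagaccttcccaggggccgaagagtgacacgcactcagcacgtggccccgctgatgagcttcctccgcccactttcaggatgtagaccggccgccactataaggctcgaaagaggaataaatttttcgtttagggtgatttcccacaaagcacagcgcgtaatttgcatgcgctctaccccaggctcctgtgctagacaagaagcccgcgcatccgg
Ddb1: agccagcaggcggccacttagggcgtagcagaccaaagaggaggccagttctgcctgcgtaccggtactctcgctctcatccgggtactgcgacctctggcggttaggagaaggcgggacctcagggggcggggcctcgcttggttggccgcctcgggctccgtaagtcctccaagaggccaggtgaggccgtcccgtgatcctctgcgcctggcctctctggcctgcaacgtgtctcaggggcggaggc

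The capitals mark an E2F-like motif in Brca2 and a CCAAT box in Fancc, both on the opposite strand, and the sequences of Parp2 and Ddb1 hold none of the motifs searched. Both strands were searched for the E2F-like letters TTTNNCGC, for the box with the letters CCAAT, for the CHR element with the letters TTTGAA, and for the NRF1 motif and the p53 response element by their consensus. None of these motifs contains another. The RefSeq table matched 37 of the 47 genes, and a gene counted if any of its listed promoters held the motif. The E2F-like motif was in 4 of the 37 (10.8%), Brca2, Bard1, Fancg and Xrcc6, against 4.94% of 27025 genes in the table. The CCAAT box was in 17 (45.9%, against 37.5%), the CHR element in 2 (5.41%, against 18.3%), the NRF1 motif in 2 (5.41%, against 0.877%), and the p53 response element in 0 (against 0.0111%). These are matches of letters and not known binding sites.

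Levels differed far more between genes than between the groups. Ddb1, the adaptor of a ubiquitin ligase that serves nucleotide excision repair, had the highest mean (248 FPKM with doxorubicin and 218 FPKM in medium). It was followed by Apex1, the main endonuclease at abasic sites (167 and 170 FPKM), and Parp1, the main sensor of strand breaks (96.1 and 93.7 FPKM). The lowest were Rad51c (1.17 FPKM with doxorubicin and 1.76 FPKM in medium) and the ligase gene Lig4 (1.69 and 1.51 FPKM). Of the routes, recombination genes had the lowest median level, 3.88 FPKM with doxorubicin and 4.42 FPKM in medium, against 12.2 and 12.8 FPKM over all genes tested.

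**Figure D3:**
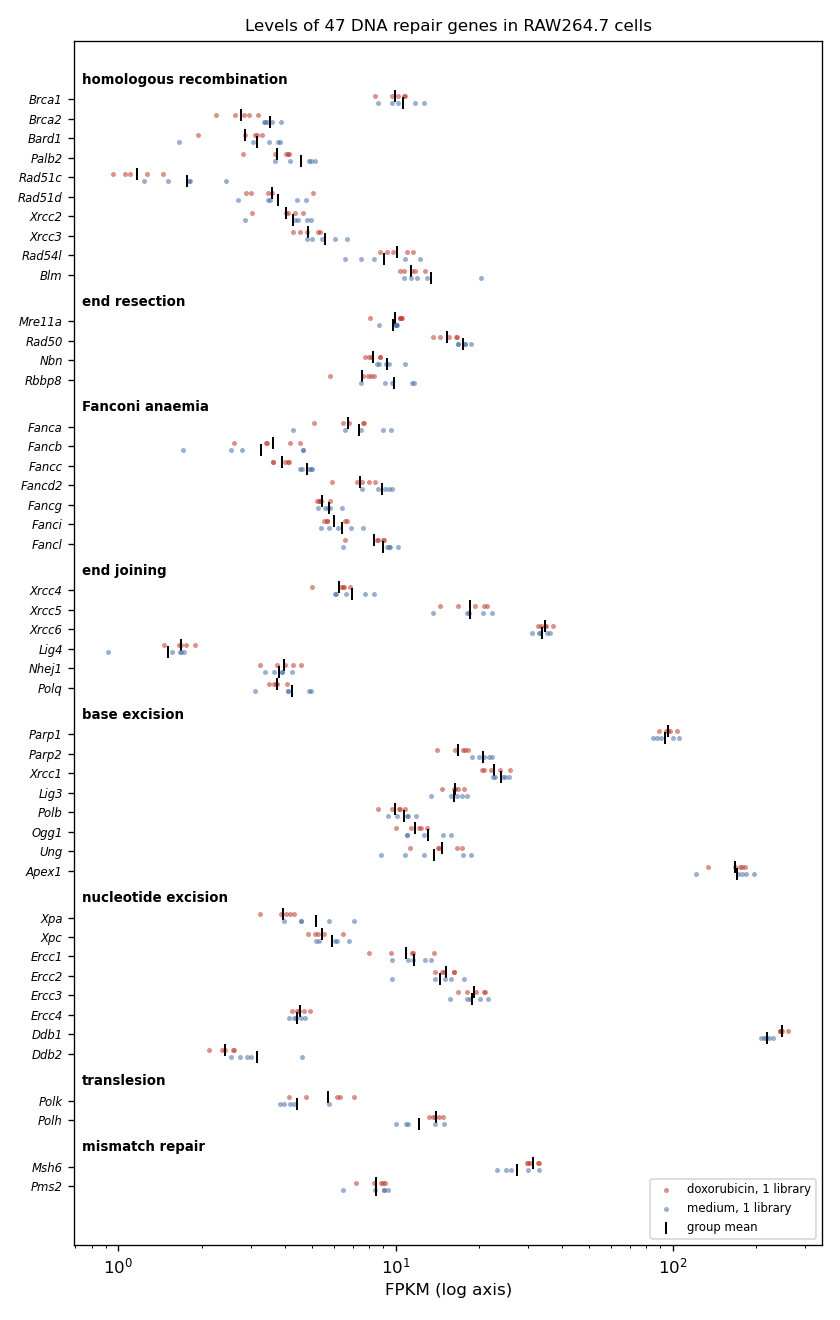
FPKM of the 47 genes on a log axis, by repair route, with 1 point per library (doxorubicin in red above, medium in blue below) and a black bar at each group mean. Ddb1, Apex1 and Parp1 lie at the right, Rad51c and Lig4 at the left, and the points of the groups overlap for most genes.

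Homologous recombination begins with resection of the broken ends by the complex of MRE11, RAD50 and NBS1 together with CtIP, the product of Rbbp8. Rbbp8 had 5.81, 7.61, 7.93, 8.37 and 8.13 FPKM in doxorubicin libraries 1 to 5, against 7.49, 9.67, 9.17, 11.5 and 11.7 FPKM in medium libraries 1 to 5. Each doxorubicin library was below the medium library of its number, and the groups overlapped only through medium library 1. The log2 difference was -0.34 (SE 0.13, limma adjusted p = 0.196; 0.00707 with the block). It was past the threshold with the block whichever replicate number was left out (adjusted p no higher than 0.0407).

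Rad50, the ATPase that tethers the ends, had 13.6, 14.4, 15.5, 16.5 and 16.7 FPKM in doxorubicin libraries 1 to 5, against 17.8, 16.8, 16.9, 17.7 and 18.8 FPKM in medium libraries 1 to 5. The groups did not overlap, though the highest doxorubicin library lay just under the lowest medium library. The difference was -0.19 (limma adjusted p = 0.199; 0.0406 with the block). The nuclease gene Mre11a averaged 9.99 ± 1.05 FPKM with doxorubicin and 9.80 ± 0.620 FPKM in medium (SD, n = 5 each; log2 difference 0.02, 95% interval -0.16 to 0.20). Nbn, which encodes NBS1, averaged 8.30 ± 0.470 FPKM with doxorubicin and 9.35 ± 0.879 FPKM in medium (-0.15, 95% interval -0.31 to 0.01). Differences between the genes of the complex were not tested.

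Brca2 encodes a protein that acts on resected DNA in homologous recombination. It had 2.24, 2.62, 2.97, 3.18 and 2.84 FPKM in doxorubicin libraries 1 to 5, against 3.45, 3.37, 3.34, 3.59 and 3.85 FPKM in medium libraries 1 to 5. The highest doxorubicin library was below the lowest medium library. The log2 difference was -0.27 (SE 0.08, limma adjusted p = 0.131; 0.0257 with the block). Palb2, whose product joins BRCA1 to BRCA2, had 2.83, 3.68, 4.12, 4.10 and 4.02 FPKM in doxorubicin libraries 1 to 5, against 3.68, 5.13, 4.96, 4.16 and 4.87 FPKM in medium libraries 1 to 5. Library 1 was the lowest in each group, the groups overlapped, and within number 4 the values were nearly equal. The difference was -0.23 (limma adjusted p = 0.288; 0.0392 with the block).

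Brca1 and Bard1, which encode partners in a ubiquitin ligase, had log2 differences of -0.07 (95% interval -0.30 to 0.16) and -0.08 (-0.46 to 0.29). Bard1 was lowest in library 1 of both groups, at 1.94 FPKM with doxorubicin and 1.65 FPKM in medium. Among Rad51c, Rad51d, Xrcc2 and Xrcc3, whose products act in homologous recombination, Rad51c averaged 1.17 ± 0.196 FPKM with doxorubicin and 1.76 ± 0.447 FPKM in medium (-0.34, adjusted p = 0.165 by limma; 0.0509 with the block). The difference of Xrcc3 was -0.17 (adjusted p = 0.366 by limma), while Rad51d (-0.06) and Xrcc2 (-0.07) lay nearer to 0. The motor protein gene Rad54l was the only recombination gene with an estimate above 0, with 10.1 ± 1.15 FPKM with doxorubicin and 9.08 ± 2.36 FPKM in medium (0.16, 95% interval -0.16 to 0.49). The helicase gene Blm had 11.4 ± 0.932 FPKM with doxorubicin and 13.5 ± 3.90 FPKM in medium, where library 1 alone reached 20.3 FPKM (-0.19, 95% interval -0.51 to 0.13).

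In the Fanconi anaemia pathway a core complex, with FANCL as its ubiquitin ligase, modifies the pair of FANCD2 and FANCI. Fancc, a core complex gene, had 3.60, 3.63, 4.13, 3.98 and 4.10 FPKM in doxorubicin libraries 1 to 5, against 4.99, 4.60, 4.53, 4.88 and 4.97 FPKM in medium libraries 1 to 5. The groups did not overlap. The log2 difference was -0.25 (SE 0.06), and its adjusted p was the lowest of the 47 without the block (limma adjusted p = 0.102; 0.0209 with the block). An antisense gene, Gm16133, shares 16.4% of the exonic bases of Fancc, so reads of the pair cannot be told apart if the counting ignored strand, a setting that is not given in the sources used here. Of the 47 genes, 23 share some exonic base with a gene on the opposite strand. At least 10% of the exonic bases are shared with another gene in 10 of the 47. These are Fancc, Rad54l, Fanca, Fanci, Fancl, Lig3, Ogg1, Apex1, Ercc2 and Ddb2.

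Fancd2 had 5.88, 7.28, 7.59, 8.01 and 8.42 FPKM in doxorubicin libraries 1 to 5, against 7.60, 9.74, 9.50, 9.19 and 8.62 FPKM in medium libraries 1 to 5. Library 1 was the lowest in each group, the groups overlapped through medium library 1, and within number 5 the values lay close together. The difference was -0.24 (limma adjusted p = 0.230; 0.0302 with the block). Its partner Fanci was at 6.02 ± 0.545 FPKM with doxorubicin and 6.38 ± 0.886 FPKM in medium, with a difference that was below 0 in numbers 1 to 3 and above 0 in numbers 4 and 5 (-0.07, 95% interval -0.27 to 0.14). The core complex genes Fanca (-0.09), Fancg (-0.07) and Fancl (-0.09) were below 0 and Fancb (0.16) was above it, each with a 95% interval that included 0.

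In end joining the Ku proteins, the products of Xrcc5 and Xrcc6, bind the ends, and LIG4 with XRCC4 and the product of Nhej1 seals them. Xrcc6 averaged 34.5 ± 1.66 FPKM with doxorubicin and 33.7 ± 1.94 FPKM in medium (SD, n = 5 each), with a log2 difference of 0.04 and a 95% interval of -0.10 to 0.17. Xrcc5 averaged 18.6 ± 2.88 FPKM with doxorubicin and 18.6 ± 3.26 FPKM in medium, with a difference of 0.00 and a wider interval of -0.30 to 0.30, which narrowed to -0.12 to 0.12 with the block. Lig4 (0.11), Nhej1 (0.04) and Xrcc4 (-0.14) had adjusted p between 0.532 and 0.852 by limma. Xrcc4 was lower in numbers 1 and 2 (-0.35 and -0.55) and slightly higher in the other 3.

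Polq encodes the polymerase of the alternative end joining route that uses short homologies. It had 3.50, 3.63, 4.07, 3.72 and 3.73 FPKM in doxorubicin libraries 1 to 5, against 3.12, 4.94, 4.89, 4.08 and 4.11 FPKM in medium libraries 1 to 5. The groups overlapped. It was lower with doxorubicin in each of numbers 2 to 5 and higher in number 1. The difference was -0.13 (limma adjusted p = 0.524; 0.217 with the block), and without both number 1 libraries it was -0.20 (adjusted p = 0.0393 with the block).

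Parp2 encodes a poly(ADP-ribose) polymerase that responds to strand breaks beside PARP1. It had 14.1, 16.4, 17.8, 18.3 and 17.5 FPKM in doxorubicin libraries 1 to 5, against 18.8, 20.1, 21.8, 20.8 and 22.2 FPKM in medium libraries 1 to 5. All 5 doxorubicin libraries were below all 5 medium libraries. The log2 difference was -0.29 (SE 0.08, limma adjusted p = 0.120; 0.00737 with the block). With the block it stayed past the threshold whichever number was left out (adjusted p no higher than 0.0421), and without both number 1 libraries it passed without the block too (0.0249), as did Rbbp8 (0.0398). In that fit 0 repair genes were higher and 2 lower, where 2.87% of all genes tested were higher and 2.77% lower.

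The other base excision genes had smaller estimates. Parp1, at 89.2, 97.4, 104, 94.4 and 95.9 FPKM in doxorubicin libraries 1 to 5 against 84.8, 106, 99.9, 90.6 and 87.7 FPKM in medium libraries 1 to 5, had a difference of 0.04 with a 95% interval of -0.12 to 0.20. The scaffold gene Xrcc1 (-0.09), the ligase gene Lig3 (0.01), the polymerase gene Polb (-0.09) and the glycosylase genes Ogg1 (-0.13) and Ung (0.13) each had a 95% interval that included 0. Apex1 averaged 167 ± 19.6 FPKM with doxorubicin and 170 ± 28.8 FPKM in medium (-0.01). It shares 61.7% of its exonic bases with Pip4p1 on the opposite strand, the largest overlap of the 47 genes.

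In nucleotide excision repair, DDB1 with DDB2 and XPC recognise damage, XPA checks it, the helicases ERCC2 and ERCC3 open the strands, and ERCC1 with ERCC4 cuts on 1 side. Ddb1 had 261, 243, 248, 245 and 243 FPKM in doxorubicin libraries 1 to 5, against 213, 230, 222, 216 and 209 FPKM in medium libraries 1 to 5. The groups did not overlap. The log2 difference was 0.19 (SE 0.05, limma adjusted p = 0.117; 0.0209 with the block). Its partner Ddb2, known as a p53 target in human cells, was at 2.43, 2.12, 2.59, 2.37 and 2.60 FPKM in doxorubicin libraries 1 to 5, against 4.58, 2.91, 2.54, 3.0 and 2.75 FPKM in medium libraries 1 to 5. The estimate was below 0 (-0.26, limma adjusted p = 0.270; 0.0915 with the block), and medium library 1 lay far above the others. Acp2 on the opposite strand shares 23.8% of the exonic bases of Ddb2.

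Xpa averaged 3.91 ± 0.402 FPKM with doxorubicin and 5.18 ± 1.24 FPKM in medium (-0.31, limma adjusted p = 0.230; 0.0706 with the block), with within-number differences of -0.65 and -0.67 in numbers 1 and 4 and of -0.03 to -0.15 in the others. Xpc had a difference of -0.10 and was lower in 5 of 5 numbers. Ercc1 (-0.11), Ercc2 (0.09), Ercc3 (0.03) and Ercc4 (0.03) had adjusted p of 0.723 to 0.901 by limma, with the widest 95% intervals for Ercc1 (-0.39 to 0.18) and Ercc2 (-0.20 to 0.38).

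Translesion polymerases copy damaged templates that stall the replicative enzymes. Polk, whose product extends past bulky lesions, had 7.10, 4.14, 4.75, 6.17 and 6.32 FPKM in doxorubicin libraries 1 to 5, against 5.77, 3.83, 3.97, 4.29 and 4.15 FPKM in medium libraries 1 to 5. Each doxorubicin library was above the medium library of its number, although the groups overlapped, with medium library 1 above doxorubicin libraries 2 and 3. The difference was 0.30 (SE 0.14, limma adjusted p = 0.281; 0.0217 with the block), and within numbers it ran from 0.09 in number 2 to 0.51 in number 5. Polh, which bypasses ultraviolet dimers, averaged 14.0 ± 0.630 FPKM with doxorubicin and 12.2 ± 2.14 FPKM in medium (0.20, adjusted p = 0.332 by limma; 0.0801 with the block).

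Msh6, which takes part in recognising mispaired bases, had 30.6, 33.0, 32.6, 30.1 and 29.9 FPKM in doxorubicin libraries 1 to 5, against 23.2, 32.9, 30.2, 26.1 and 25.0 FPKM in medium libraries 1 to 5. Medium libraries 2 and 3 overlapped the doxorubicin libraries, and within number 2 the values were nearly equal. The difference was 0.19 (limma adjusted p = 0.314; 0.0566 with the block). Pms2, which nicks the strand to be repaired, averaged 8.51 ± 0.794 FPKM with doxorubicin and 8.48 ± 1.19 FPKM in medium (0.01, 95% interval -0.21 to 0.24).

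**Figure D4:**
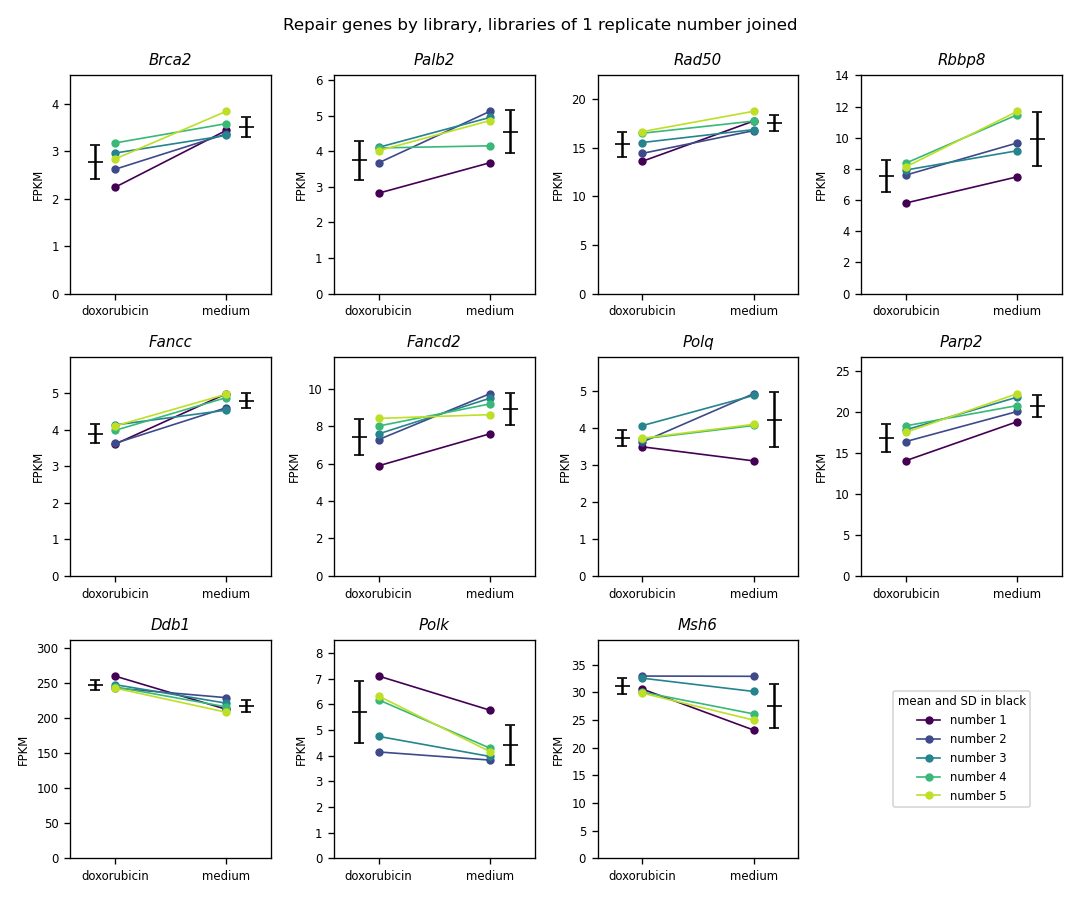
FPKM (y axis, from 0) of 11 repair genes in doxorubicin libraries (left) and medium libraries (right), with libraries of the same replicate number joined by a line and the mean and SD of 5 libraries in black. The lines rise to the right for the 7 genes lower with doxorubicin and fall to the right for Ddb1 and Polk, while in Polq the line of number 1 falls and the other 4 rise.

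Of the 9 calls made with the block, those of Rbbp8 and Parp2 were kept whichever number was left out. The others were lost in at least 2 of the 5 fits that left out 1 number: Polk without number 4 or 5 (adjusted p up to 0.0854), Brca2 (0.0970) and Fancc (0.0738) without 2, 4 or 5, Fancd2 (0.0858) without 2, 3 or 4, Ddb1 (0.0895) without 3, 4 or 5, and Palb2 (0.114) and Rad50 (0.113) without each of 2 to 5 in turn. All 9 were kept without number 1, where Xrcc3 and Polq were lower too, which made 2 higher and 9 lower, against 10.2% and 18.4% of all genes tested. Groups did not overlap for 4 of the 47 genes on the lower side, Brca2, Rad50, Fancc and Parp2 (8.51%, against 3.97% of all genes tested), and for 1 on the higher side, Ddb1 (2.13%, against 2.73%).

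A further list held 98 other genes of these routes and of direct reversal. By limma 2 of the 98 were higher and 2 were lower, where 0.689% of all genes tested were higher and 0.223% lower. With the block 6 were higher (6.12%, against 7.81% of all genes tested) and 22 were lower (22.4%, against 13.7%), with a median difference of -0.08. Of these, 4 of 25 recombination genes (16%), 2 of 10 Fanconi genes (20%), 3 of 12 end joining genes (25%) and 6 of 18 base excision genes (33.3%) were lower with the block, and of 2 end resection genes none was. The contrast between routes seen in the 47 genes was not repeated here. The 25 recombination genes had a median of -0.06 with 64% below 0, and the 10 Fanconi genes a median of -0.09 with 80% below 0, while both end resection genes lay above 0 (median 0.15). The 12 end joining genes had a median of -0.13, with within-number medians of -0.05, -0.14, -0.13, -0.09 and -0.11 in numbers 1 to 5, against -0.09, -0.18, -0.11, -0.02 and 0.01 for the recombination genes. Those of the 10 Fanconi genes were -0.11, -0.15, -0.05, -0.11 and -0.05. Like those of end joining, they lay below the median of all genes tested in each number. Of 7 translesion genes 5 lay below 0 (median -0.03), with 1 higher and 2 lower with the block. Of 6 mismatch repair genes 3 lay below 0 (median -0.05), with 0 higher and 1 lower with the block. Ercc5, which cuts on the other side of the lesion from ERCC1 and ERCC4, rose to 5.81 ± 1.59 FPKM with doxorubicin, against 2.61 ± 0.239 FPKM in medium (0.89, limma adjusted p = 0.0154). Its call was lost without doxorubicin library 4 or medium library 4 (highest adjusted p = 0.0581). Parp3, of the same family as Parp1 and Parp2, rose to 7.20, 7.69, 7.63, 6.52 and 7.12 FPKM in doxorubicin libraries 1 to 5, against 5.16, 5.78, 5.95, 5.04 and 4.96 FPKM in medium libraries 1 to 5 (0.37, limma adjusted p = 0.0383).

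Tdp1, which clears proteins trapped on DNA ends, fell to 13.2 ± 0.850 FPKM with doxorubicin, against 17.2 ± 1.08 FPKM in medium (-0.36, limma adjusted p = 0.0368). The groups did not overlap for Ercc5, Parp3 or Tdp1. The calls of Parp3 and Tdp1 were lost in 9 of 10 fits that left out 1 library, all but the one without medium library 1, with adjusted p up to 0.132 for Parp3 and 0.123 for Tdp1. Among the 47 genes the size of the largest difference was 0.34.

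Many recombination genes are known to be expressed with the cell cycle, and proliferation genes are given beside them. Of 20 such genes 0 passed by limma, where 0.912% of all genes tested did. At an unadjusted p under 0.05, 2 were lower and 0 higher, against 11.2% and 6.62% of all genes tested. The exact permutation test, which no gene at all passed after adjustment, called 0. With the block 1 was higher (5%) and 2 were lower (10%), against 7.81% and 13.7% of all genes tested, with a median difference of 0.01. These counts therefore show nothing particular to the proliferation genes. Mki67, a marker of cycling cells, averaged 52.0 ± 7.16 FPKM with doxorubicin and 65.9 ± 4.77 FPKM in medium (-0.35, limma adjusted p = 0.131; 0.00617 with the block). Cdc45, a replication helicase gene, averaged 27.2 ± 3.17 FPKM with doxorubicin and 42.4 ± 7.21 FPKM in medium (-0.61, limma adjusted p = 0.0532; 0.00203 with the block). The third was Ccne1, a cyclin gene of S phase entry, which was higher with the block (0.73, limma adjusted p = 0.391; 0.0302 with the block). Ccne1 averaged 32.7 ± 9.44 FPKM with doxorubicin and 22.1 ± 12.6 FPKM in medium, where library 1 had only 5.40 FPKM. The groups overlapped, and within numbers the difference ran from 0.19 in number 2 to 1.75 in number 1. The part of cell cycle stage in the values of the recombination genes was not tested.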

How the data were processed

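Poly(A) RNA of 5 doxorubicin and 5 medium libraries of RAW264.7 cells was captured with oligo(dT), broken into fragments and reverse transcribed from random primers, per the labels' protocols. The authors deposited FPKM values, 1 column per library, and columns were matched to libraries by library name. Per the submitters' processing notes the reads were placed on GRCm39. Aligner, quantifier, annotation, filters and strand setting are not given in the sources used here. No whole-read steps were found among low values, so depth is unknown and no counting interval is given.

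Values were analysed as log2(FPKM + 1) with limma 3.58.1 in R 4.3.3 (mean-variance trend, group as the only term, Benjamini-Hochberg adjustment over the 9869 genes averaging 1 FPKM or more, threshold 0.05). All 47 repair genes passed this filter, and differences on this scale understate those of genes near 1 FPKM. The 47 members, the routes and the other lists were chosen with earlier results of these data known. Values in every library are given for members past the threshold with or without the replicate block and for the member of each route with the smallest p. Those of Parp1 and Ddb2 were added after they were seen. The code was tested on simulated data. Exonic overlaps come from GENCODE M21 (GRCm38), used for names only. Some genes counted in the lists are not reported here by name.

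Replicate numbers are those in the titles. Libraries of the same number deviated together from their group means, with correlations of 0.79, 0.70, 0.67, 0.52 and 0.55 for numbers 1 to 5. The number was therefore used as a block beside the fit without it. Some libraries of different numbers agreed about as closely. The correlation was 0.69 for doxorubicin 3 with medium 2 and 0.59 for doxorubicin 2 with medium 3. It was 0.51 both for doxorubicin 5 with medium 4 and for doxorubicin 4 with medium 5. The remaining pairs of different numbers lay between -0.61 and 0.003. Alternatives were other pseudocounts, filters, scalings and weights, an exact permutation test, and libraries left out.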

Additional observations from a re-analysis of the deposited data

Results flagged for a closer look

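Repair genes were screened for libraries far from the other 4 of their group, by the gap to the nearest library divided by the range of the group on the log2 scale. Of 94 groups of 5 libraries, 13 were above the critical value of 0.71, where chance gives about 1 in 20 groups, or 4.7. Replicate number 1 was the outlying library in 12 of the 13, 5 with doxorubicin and 7 in medium.

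Doxorubicin library 1 was the lowest for Mre11a (8.11 FPKM, nearest 10.4 FPKM, ratio 0.918), Fancl (6.55 FPKM, nearest 8.59 FPKM, 0.832), Rbbp8 (5.81 FPKM, nearest 7.61 FPKM, 0.733), Apex1 (134 FPKM, nearest 168 FPKM, 0.730) and Bard1 (1.94 FPKM, nearest 2.86 FPKM, 0.717). Doxorubicin library 2 was the lowest for Xrcc4 (4.99 FPKM, nearest 6.38 FPKM, 0.764). Medium library 1 was the lowest for Mre11a (8.69 FPKM, nearest 10.0 FPKM, 0.917), Lig4 (0.920 FPKM, nearest 1.56 FPKM, 0.818), Fancl (6.44 FPKM, nearest 9.33 FPKM, 0.796), Xrcc2 (2.86 FPKM, nearest 4.33 FPKM, 0.740) and Apex1 (121 FPKM, nearest 172 FPKM, 0.725). It was the highest for Ddb2 (4.58 FPKM, nearest 3.0 FPKM, 0.733) and Polk (5.77 FPKM, nearest 4.29 FPKM, 0.729). Over the 47 genes the median deviation from the other 4 libraries was -0.12 in doxorubicin library 1 and -0.19 in medium library 1 on the log2 scale.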

How the results depend on the processing

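Without the replicate block 68 genes were higher and 22 lower over all genes, and 0 and 0 of the 47 repair genes. With the replicate block these were 771 and 1356, and 2 and 7. Library quality weights gave 1379 and 2302, and 4 and 11. Without both number 1 libraries there were 283 and 273, and 0 and 2 (Parp2 and Rbbp8), and with the block as well 1010 and 1817, and 2 and 9. With the block and without number 2, 3, 4 or 5, an alternative chosen after seeing the data, there were 727, 430, 264 and 254 higher and 822, 870, 373 and 374 lower over all genes, and 4, 1, 0 and 0 higher and 3, 4, 2 and 3 lower among the repair genes. The exact permutation test called 0 genes, and its smallest adjusted p over all genes tested was 0.118. A minimum of 5 FPKM left 40 genes higher. Leaving out medium library 1 gave 136 genes higher and 90 lower, and leaving out any 1 of the other 9 libraries gave 15 to 48 higher and 0 to 12 lower, with 0 repair genes in all 10 fits. The fits with pseudocounts of 0.1 and 0.5, no filter, rescaling, centring, quantile normalisation and no trend also called 0 repair genes.

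No repair gene past the threshold in any fit changed its sign. Members near 0 did. Library quality weights gave 0.0548 for Brca1, 0.0202 for Blm, 0.120 for Fanci, 0.0310 for Xrcc4, -0.0358 for Xrcc5, -0.0240 for Lig4, -0.0691 for Nhej1, -0.00518 for Lig3 and -0.0438 for Pms2. Rescaling gave -0.00888 for Xrcc5 and -0.000407 for Lig3, and centring 0.0350 for Apex1. Without both number 1 libraries, with or without the block, Xrcc5 was at -0.0208, Lig3 at -0.0212, Ercc2 at -0.00505 and Pms2 at -0.0202. With 1 library left out, the range was -0.239 to 0.0118 for Bard1, -0.159 to 0.0157 for Rad51d, -0.174 to 0.0112 for Xrcc2, -0.0170 to 0.0874 for Mre11a, -0.248 to 0.00507 for Fanca, -0.101 to 0.0805 for Xrcc5, -0.00288 to 0.0953 for Nhej1, -0.0559 to 0.0466 for Lig3, -0.128 to 0.0673 for Apex1, -0.0341 to 0.168 for Ercc2, -0.0275 to 0.0812 for Ercc3 and -0.0734 to 0.0642 for Pms2. The causes were not tested. Depth is unknown, and the precision rests on 5 libraries a group.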

Other observations

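Direct reversal of base damage, a route outside the 47 genes, held the largest difference of the 98 further repair genes after Ercc5. Of the 4 genes listed for this route, however, 3 lay below 0 (median -0.18). With the block 1 was higher (25%) and 2 were lower (50%), against 7.81% and 13.7% of all genes tested. Mgmt, whose product takes alkyl groups off guanine, had 24.0, 13.5, 14.6, 16.5 and 17.1 FPKM in doxorubicin libraries 1 to 5, against 15.1, 10.2, 8.98, 9.19 and 9.35 FPKM in medium libraries 1 to 5. It was higher with doxorubicin in 5 of 5 replicate numbers, and the groups overlapped only through medium library 1 (log2 difference 0.65, limma adjusted p = 0.104; 0.00151 with the block). Nthl1, a glycosylase gene of base excision, had the lowest adjusted p of the further repair genes not called. It had 9.88, 8.04, 8.56, 8.47 and 9.98 FPKM in doxorubicin libraries 1 to 5, against 13.5, 10.9, 10.5, 11.4 and 13.1 FPKM in medium libraries 1 to 5 (-0.37, limma adjusted p = 0.0935; 0.00339 with the block), with no overlap of the groups. Both genes were chosen after their values were seen.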
